A study of Mus musculus with 55 samples.

Results

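The genes described here encode the subunits of the mitochondrial respiratory chain and ATP synthase. They were chosen by symbol from 56867 Ensembl genes counted at both days of the study, and 100 genes met the rule. Of these, 87 lie in the nucleus and 13 on mitochondrial DNA. The nuclear genes were the Ndufa, Ndufb, Ndufc, Ndufs and Ndufv genes of complex I (38 genes), Sdha to Sdhd of complex II (4), the Uqcr genes and Cyc1 of complex III (9), the Cox4 to Cox8 genes of complex IV (18) and the Atp5 genes of complex V (18). The mitochondrial genes encode subunits of complex I (7), complex III (1), complex IV (3) and complex V (2). Left out as pseudogenes were 9 symbols that contain -ps and 4 further genes annotated as pseudogenes (Ndufa11b, Ndufb4c, Ndufs6b and Cox6c2). Among the 9, Ndufb1-ps is annotated as a bidirectional promoter lncRNA and not as a pseudogene. It averaged 7206 counts per library at day 28 and 2475 at day 7. The rule also takes in relatives that are not structural subunits, among them Ndufa4l2, Cox7a2l and Atp5s.

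The tissue was infarcted left ventricle, taken from C57BL/6J mice after permanent ligation of a coronary artery, so every group had an infarct and no unoperated group is among those described. At day 28 there were 10 libraries of type 1 diabetic (T1D), 10 of type 2 diabetic (T2D) and 11 of non-diabetic (ND) tissue, and at day 7 there were 8 of each. The T1D library names carry hi STZ (streptozotocin, a toxin of the insulin-producing beta cell), the T2D names carry lo STZ HFFD, and the ND names carry Ctrl, so dose of toxin, diet and type of diabetes cannot be told apart. Day 28 is known from the sample titles, since the design text mentions day 7 alone. By the library names each day was its own sequencing project, and effects of day and of project cannot be told apart. By its title the study set out to contrast type 1 with type 2 diabetes in their immune and metabolic signatures after infarction. The labels do not say that libraries come from separate animals, so p-values measure the spread between libraries, which may be in part technical. Library totals were 57.4 to 89.6 M (mega) counts in T1D, 48.1 to 92.9 M in T2D and 58.0 to 84.4 M in ND tissue at day 28. At day 7 they were 31.3 to 51.2 M in T1D, 30.8 to 48.2 M in T2D and 10.8 to 46.8 M in ND tissue.

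Complexes I and II pass electrons from NADH and succinate to ubiquinone, complex III passes them on to cytochrome c, and complex IV passes them to oxygen. Complexes I, III and IV pump protons as they do so, and complex V uses the proton gradient to make ATP. Complex II is built from nuclear genes alone, while the other complexes combine nuclear subunits with a hydrophobic core made on mitochondrial ribosomes. Cardiomyocytes are packed with mitochondria, and several complex IV subunits exist as a heart and muscle isoform and a widely expressed isoform. Scar-forming fibroblasts and leukocytes hold far fewer mitochondria per cell.

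In each group the mitochondrial genes took a larger share of the library than the nuclear ones, and both shares were higher at day 28. The 13 mitochondrial genes held 11.1 percent of the counts in the lowest, 13.7 in the median and 18.1 percent in the highest T1D library at day 28. In T2D tissue at day 28 the lowest, median and highest shares were 6.36, 15.8 and 21.6 percent, and in ND tissue 12.9, 17.0 and 20.8 percent. At day 7 they were 2.52, 4.38 and 6.17 percent in T1D, 2.80, 5.61 and 7.18 percent in T2D, and 3.10, 4.99 and 9.06 percent in ND tissue. Every T1D and ND library of day 28 lay above every library of the same state at day 7, and the only T2D library of day 28 within the day 7 range was replicate 4, at 6.36 percent.

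The 87 nuclear genes together held 2.03, 2.33 and 2.84 percent of the counts (lowest, median, highest) in T1D tissue at day 28, 1.26, 2.38 and 2.94 percent in T2D and 2.10, 2.60 and 3.08 percent in ND tissue. At day 7 the shares were 0.771, 0.995 and 1.28 percent in T1D, 0.770, 1.10 and 1.34 percent in T2D, and 0.829, 1.06 and 1.46 percent in ND tissue. The same T2D library, replicate 4 of day 28, was again the 1 library within the day 7 range. The log2 ratio of the mitochondrial to the nuclear sum had medians of 2.58 in T1D, 2.69 in T2D and 2.66 in ND tissue at day 28, against 2.14, 2.35 and 2.24 in the same states at day 7. The ratio did not overlap between days in T1D tissue, where it ran from 2.45 to 2.67 at day 28 and from 1.71 to 2.42 at day 7. It overlapped in T2D tissue (2.33 to 2.88 at day 28, 1.86 to 2.47 at day 7) and in ND tissue (2.49 to 2.97 at day 28, 1.73 to 2.63 at day 7). No test is given for these sums.

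**Figure D1:**
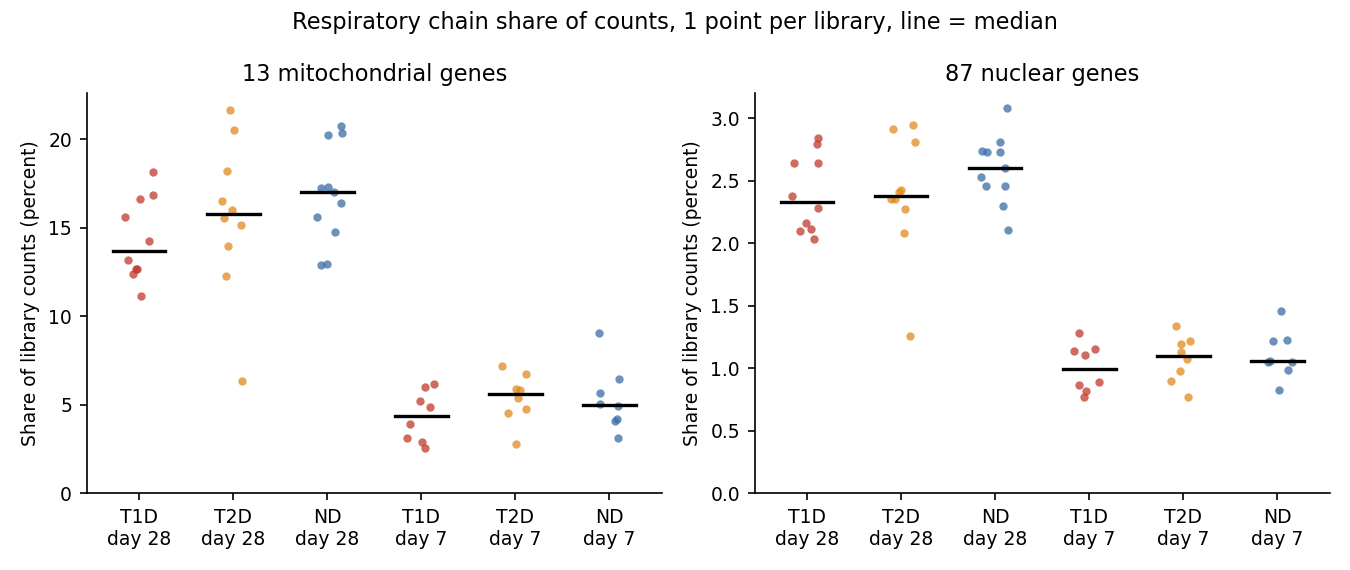
Share of all counts of a library, in percent, held by the 13 mitochondrial genes (left) and the 87 nuclear genes (right) in the 6 groups, with 1 point per library and a line at the median. The day 28 groups lie above the day 7 groups except for T2D replicate 4 at day 28, at 6.36 percent mitochondrial and 1.26 percent nuclear.

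Cardiomyocyte marker RNA was higher at day 28 as well. The mean log2 CPM (counts scaled to library size) of 20 cardiomyocyte markers was 10.63, 10.89 and 11.39 (lowest, median, highest) in T1D, 9.13, 10.94 and 11.45 in T2D and 10.60, 11.32 and 11.68 in ND tissue at day 28. At day 7 it was 5.84, 8.70 and 9.41 in T1D, 7.37, 9.25 and 9.63 in T2D, and 8.08, 9.19 and 10.06 in ND tissue. In all 6 groups the library with the lowest mean level of the nuclear members also had the lowest cardiomyocyte marker mean. Those libraries were T1D replicate 9, T2D replicate 4 and ND replicate 3 at day 28, and T1D replicate 4, T2D replicate 7 and ND replicate 5 at day 7. The part of tissue makeup in the results below was not tested, and in bulk tissue fewer cells of a type and less RNA per cell cannot be told apart. Brown adipocytes are also rich in mitochondria and carry Cox7a1 and Cox8b, and their defining marker Ucp1 had 0 to 14 raw counts per library in all groups except T2D at day 28, where 1 library (replicate 3) had 158.

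The 13 mitochondrial genes were counted very unequally. Counts per library averaged 4365058 at day 28 and 714362 at day 7 for mt-Co1, the catalytic core of complex IV, and 2035425 and 394778 for mt-Cytb, the cytochrome b of complex III. The complex I genes mt-Nd1, mt-Nd2, mt-Nd4, mt-Nd5 and mt-Nd6 ranged from 347133 to 1273427 at day 28 and from 71608 to 245135 at day 7. The other 6 genes had few counts, with means of 3361 at day 28 and 182 at day 7 for mt-Co3, 2673 and 182 for mt-Co2, 2177 and 140 for mt-Atp6, 986 and 96.6 for mt-Nd3, 390 and 24 for mt-Nd4l, and 242 and 18.6 for mt-Atp8. The 5 longer genes of these 6 have a near-identical nuclear copy on chromosome 1 in the GENCODE M21 annotation. The copy Gm10925 matches 678 bases of mt-Atp6 with 100 percent identity and averaged 954 counts at day 28 and 306 at day 7. The copies of mt-Co3 (Gm28437), mt-Co2 (Gm28661) and mt-Nd4l (Gm10222) also match over 783, 681 and 294 bases with 100 percent identity, and that of mt-Nd3 (Gm28438) matches over 345 bases with 99.71 percent. The best match of mt-Cytb, Gm11410 on chromosome 4, is 92.91 percent identical over 1142 bases with 81 mismatches and a longest exact run of 47 bases. The first bases of a gene with few counts and of one with many are shown beside their copies, in GENCODE M21 transcripts of GRCm38, with capitals at the bases that differ between gene and copy.
mt-Atp6, bases 1 to 60: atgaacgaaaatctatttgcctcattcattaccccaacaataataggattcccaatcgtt
Gm10925, bases 1 to 60: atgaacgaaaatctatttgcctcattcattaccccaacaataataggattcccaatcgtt
mt-Cytb, bases 2 to 61: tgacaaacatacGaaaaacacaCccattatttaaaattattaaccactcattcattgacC
Gm11410, bases 2 to 61: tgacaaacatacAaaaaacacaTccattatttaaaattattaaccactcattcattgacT
The first pair holds 0 mismatches and the second holds 3 in 60 bases. How reads that match a gene and its copy were counted is not given in the sources used here, so mt-Co2, mt-Co3, mt-Atp6, mt-Nd3, mt-Nd4l and mt-Atp8, which shares 43 bases with Gm10925, are reported as uncertain. An exact copy does not always go with few counts, as 876 bases of mt-Nd4 are identical to a chromosome 1 copy (Gm28439, 63.6 percent of the gene) while mt-Nd4 averaged 761113 counts at day 28. The gene mt-Nd6 lies on the opposite strand and overlaps mt-Nd5, and without a stated strand setting reads of the overlap cannot be told apart.

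**Figure D2:**
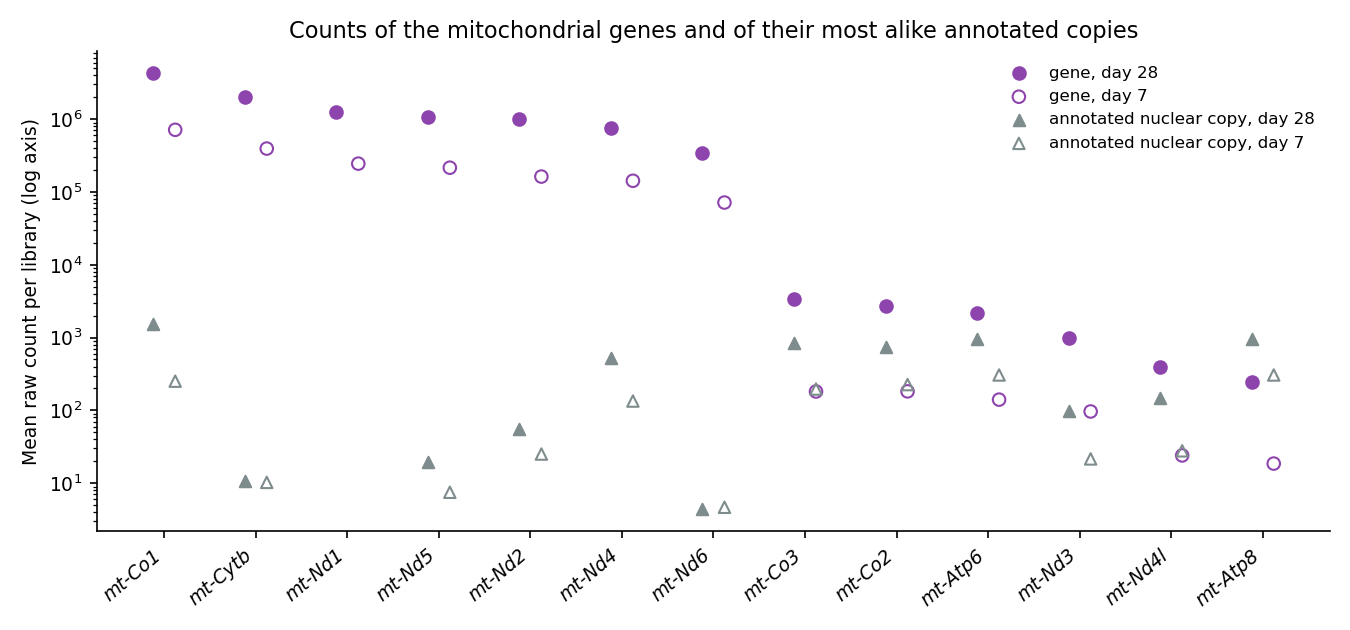
Mean raw count per library (log axis) of each mitochondrial gene (circles) and of its most alike annotated nuclear copy (triangles) at day 28 (filled) and day 7 (open), over all libraries of a day. The 7 genes on the left lie between 71608 and 4365058 counts, and the 6 on the right between 18.6 and 3361, beside copies at 21.5 to 954, and no copy was found for mt-Nd1.

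Per kilobase of gene, mt-Co1 was the most abundant member, with medians of 49109 CPM per kb in ND tissue at day 28 and 10514 at day 7. The corresponding medians were 31515 and 8169 for mt-Cytb, 24032 and 5719 for mt-Nd1, and 18276 and 3646 for mt-Nd2. The highest nuclear members at day 28 were the heart isoform Cox6a2 (1059 CPM per kb in ND tissue), the ATP synthase alpha gene Atp5a1 (1040) and the beta gene Atp5b (875). At day 7 the highest in ND tissue were Atp5a1 (295), Atp5b (286), Cox6b1 (265) and Cox6a2 (184), so Cox6a2 had moved up the order by day 28. At the low end in ND tissue at day 28 were the testis isoform Cox6b2 (1.33 CPM per kb), Ndufb2 (4.53) and Cox4i2 (7.84), an isoform known from lung and low oxygen. Lengths of nuclear genes were those of all annotated exons merged, such as 5628 bases for Ndufb2, 1108 for Cox6b2 and 788 for Cox4i2. The order of members per kilobase therefore depends on the annotation.

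The low-count filter was passed by 84 nuclear and all 13 mitochondrial members. The 3 that did not pass were the testis isoforms Cox7b2, with at most 22 counts in a library at day 28 and 4 at day 7, and Cox8c, with at most 0 at day 28 and 1 at day 7, and a second identifier of Atp5o, at 0 throughout. Levels below are log2 CPM with scaling over all 55 libraries, while log2 changes within a day were fitted with the scaling of that day.

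In ND tissue nearly the whole respiratory chain was higher at day 28 than at day 7, and the mitochondrial genes by more than the nuclear ones. Of 84 nuclear members tested, 82 were higher and 1 was lower by edgeR's quasi-likelihood test (Benjamini-Hochberg adjusted p at or under 0.05), with a median log2 change of 1.45, which was −0.09 when libraries were scaled to the summed nuclear members themselves. All 13 mitochondrial members were higher, with a median of 2.18, and all 13 were higher relative to the nuclear sum too, with a median of 0.67. Over all genes tested 65.1 percent passed, 31.4 percent of them higher and 33.7 percent lower as shares of the genes tested, with a median change of −0.03, and scaling to the nuclear sum moved that median to −1.57. Every ND library of day 28 lay above every ND library of day 7 for 13 mitochondrial and 79 nuclear members, 92 of 97, against 12.6 percent of all genes. The 5 members whose groups overlapped were Ndufa4l2, Cox4i2, Cox6a1, Cox6b2 and Atp5g2. Of all genes tested, 7.46 percent changed by more than the nuclear median and 2.95 percent by more than the mitochondrial median. The 20 cardiomyocyte markers were all higher too (median 1.93). Of 10 fibroblast markers 7 were lower and 1 higher (median −2.40), 10 of 10 macrophage markers were lower (median −1.07), and 6 of 6 white adipocyte markers were higher (median 5.28). Erythroid (5 of 5, median 2.05), endothelial (5 of 6, 0.38) and B and plasma cell markers (3 of 6, 1.38) were higher. Neutrophil markers were lower in 4 of 6 (median −1.22), and of 5 mural markers 3 were lower and 1 higher (median −0.69). The 1 brown adipocyte marker tested, of 3 listed, was higher (1.42). No T cell marker of 6 was called. With the cardiomyocyte marker mean as a covariate, which left 44.4 percent of all genes called, 80 nuclear members were higher and 1 lower, with a median of 0.67, and 13 mitochondrial members were higher with a median of 0.86. The covariate did not overlap between these groups (highest 10.06 in ND tissue at day 7, lowest 10.60 at day 28), so these adjusted changes are extrapolated. The markers also include a mitochondrial enzyme, Ckmt2, so the covariate may take up part of the change itself.

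The well counted mitochondrial genes stood above the nuclear median. The gene mt-Co1 had 15.56, 16.21 and 16.63 log2 CPM (lowest, median, highest) in ND tissue at day 28, against 13.31, 13.99 and 14.91 at day 7. Its log2 change was 2.05 (SE 0.23, adjusted p = 5.1e-11, edgeR), with no overlap between the days. The gene mt-Cytb had 14.62, 15.14 and 15.58 log2 CPM at day 28, against 12.41, 13.19 and 14.06 at day 7, a log2 change of 1.89 (SE 0.22, adjusted p = 9.1e-11, edgeR), and again no library of day 28 reached down to day 7. Among the complex I genes the log2 changes were 2.18 for mt-Nd2 (SE 0.26), 1.99 for mt-Nd1 (SE 0.22), 1.93 for mt-Nd4, 1.79 for mt-Nd5 and 1.75 for mt-Nd6 (SE 0.24). The 7 well counted genes thus spanned 1.75 to 2.18, with a median of 1.93, which equals that of the cardiomyocyte markers to 2 decimals. The 6 genes with few counts had larger changes of 2.89 to 3.43, with a median of 3.19, namely mt-Co3 at 3.43, mt-Nd4l at 3.42, mt-Atp8 at 3.21, mt-Atp6 at 3.17, mt-Co2 at 3.10 and mt-Nd3 at 2.89. The mitochondrial median of 2.18 over all 13 genes therefore includes those 6, which share sequence with nuclear copies.

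**Figure D3:**
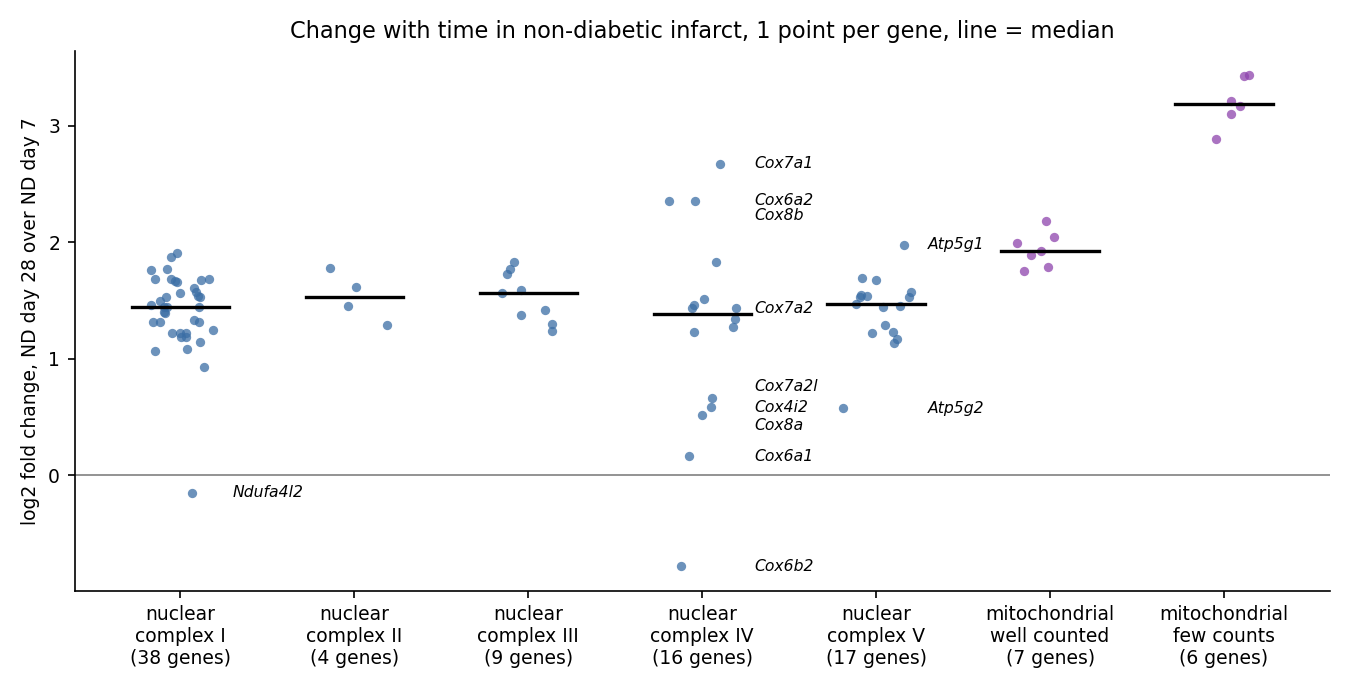
Log2 fold change of ND tissue at day 28 over day 7 for each nuclear member by complex (blue) and for the well counted and few-count mitochondrial genes (purple), with 1 point per gene and a line at the median. The nuclear complexes have medians of 1.39 to 1.57, the well counted mitochondrial genes 1.93, and complex IV spreads from −0.78 (Cox6b2) to 2.68 (Cox7a1); scaled to the summed nuclear members, the nuclear median is −0.09 and that of the 13 mitochondrial genes 0.67.

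The 5 complexes had similar nuclear medians, and the spread lay within complexes I, IV and V. In complex I, 37 of 38 nuclear genes were higher, with a median of 1.44, from 1.91 for Ndufa5 to −0.15 for Ndufa4l2 (adjusted p = 0.271, edgeR), a relative of Ndufa4 known to be induced by low oxygen. Its 7 core genes, which carry the flavin and the iron-sulfur clusters, had a median of 1.57, from 1.19 for Ndufs8 to 1.69 for Ndufs7, and the 31 accessory genes had a median of 1.40. Ndufs1, the largest core subunit, had 8.06, 8.84 and 9.16 log2 CPM in ND tissue at day 28, against 6.49, 7.02 and 7.64 at day 7, with no overlap and a log2 change of 1.68 (SE 0.18). Further core genes changed by 1.57 (Ndufs3), 1.53 (Ndufv1, which binds NADH and FMN) and 1.53 (Ndufv2). The smallest p of the complex was that of the accessory gene Ndufa1, with a log2 change of 1.40 (SE 0.12, adjusted p = 7.43e-15, edgeR). Scaled to the summed nuclear members, Ndufs8 (−0.35), Ndufv1 (−0.0042) and Ndufv2 (−0.01) were at or below 0.

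All 4 complex II genes were higher, with a median of 1.53. Sdha, the flavoprotein that oxidises succinate, had 9.35, 10.07 and 10.43 log2 CPM in ND tissue at day 28, against 7.84, 8.35 and 8.88 at day 7. Its log2 change was 1.62 (SE 0.17), without overlap between the days, and its iron-sulfur partner Sdhb changed by 1.78. The membrane anchors Sdhc and Sdhd changed by 1.29 and 1.45 (Sdhd with SE 0.14 and adjusted p = 2.89e-13, edgeR), and were at −0.24 and −0.09 when scaled to the nuclear sum. In complex III all 9 were higher, with a median of 1.57. Cytochrome c1 (Cyc1) had 8.36, 8.91 and 9.44 log2 CPM in ND tissue at day 28, against 6.57, 7.08 and 7.67 at day 7, and its change of 1.83 (SE 0.19) was the largest of the complex. The Rieske iron-sulfur protein Uqcrfs1 changed by 1.77, the core proteins Uqcrc1 and Uqcrc2 by 1.73 and 1.59, and the small subunit Uqcr10 by 1.24 (SE 0.13, adjusted p = 2.78e-12, edgeR), the smallest change of complex III.

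In complex V all 17 nuclear genes tested were higher, with a median of 1.47. Atp5b, the catalytic beta subunit, had 11.27, 11.86 and 12.21 log2 CPM in ND tissue at day 28, against 9.78, 10.24 and 10.80 at day 7, with no overlap. Its log2 change was 1.53 (SE 0.17, adjusted p = 3.32e-11, edgeR), and −0.0014 relative to the nuclear sum. The 3 genes for the c subunit, which encode the same mature ring protein, changed unequally, by 1.98 for Atp5g1 (SE 0.22, adjusted p = 2.28e-11, edgeR), 1.70 for Atp5g3 (SE 0.17) and 0.57 for Atp5g2 (SE 0.09, adjusted p = 1.93e-07, edgeR), and Atp5g2 was at −0.97 relative to the nuclear sum. Atp5g2 had 6.06, 6.49 and 6.91 log2 CPM at day 28, against 5.68, 5.83 and 6.31 at day 7 in ND tissue, so that its groups overlapped, while Atp5g1 had 8.53, 9.09 and 9.64 at day 28, against 6.24, 7.04 and 7.67 at day 7, and did not overlap. The small subunit Atp5mpl had the smallest p, with a log2 change of 1.29 (SE 0.12, adjusted p = 5.46e-14, edgeR).

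Complex IV held the widest range, and the heart and muscle isoforms led it. The 16 nuclear genes tested had a median of 1.39, with 15 higher and 1 lower. Cox7a1, the heart isoform of subunit 7a, had 7.18, 8.04 and 8.63 log2 CPM (lowest, median, highest) in ND tissue at day 28, against 3.70, 5.15 and 6.37 at day 7. Its change of 2.68 (SE 0.35, adjusted p = 2.67e-09, edgeR) was the largest of all nuclear members, and the days did not overlap. Cox6a2 had 8.87, 9.49 and 10.17 log2 CPM at day 28, against 5.81, 6.96 and 8.11 at day 7, and Cox8b had 7.05, 7.55 and 8.34 at day 28, against 3.61, 5.09 and 6.33 at day 7. The heart isoforms Cox6a2 and Cox8b thus changed by 2.36 (SE 0.34, adjusted p = 2.41e-08, edgeR) and 2.35 (SE 0.35, adjusted p = 4.86e-08, edgeR), without overlap. With the cardiomyocyte covariate the changes were 0.56 for Cox7a1, 0.32 for Cox6a2 and 0.21 for Cox8b, the last no longer past the threshold.

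Their widely expressed partners changed less. Cox6a1 had 6.24, 6.39 and 6.50 log2 CPM in ND tissue at day 28, against 6.05, 6.25 and 6.33 at day 7, so the days overlapped although the change of 0.17 passed the test (SE 0.05, adjusted p = 0.00417, edgeR). Cox8a had 6.65, 6.83 and 6.93 at day 28, against 6.12, 6.31 and 6.52 at day 7, a change of 0.51 (SE 0.07, adjusted p = 1.83e-09, edgeR). Scaled to the summed nuclear members, which sets that sum to no change, Cox6a1 was at −1.38 and Cox8a at −1.01. Those values place them below the summed nuclear members and do not mean a fall in their own level. Cox7a2 differed from them, with 7.62, 7.84 and 8.13 at day 28, against 6.04, 6.4 and 6.72 at day 7 in ND tissue, and its change of 1.44 had the smallest p of all members (SE 0.12, adjusted p = 1.27e-15, edgeR), at −0.10 relative to the nuclear sum. The remaining widely expressed genes were Cox5a (1.83), Cox5b (1.51), Cox7b (1.47), Cox6c (1.43), Cox4i1 (1.34), Cox6b1 (1.27) and Cox7c (1.23), all called higher, and Ndufa4, which is now assigned to complex IV, changed by 1.67. Relative to the nuclear sum, Cox4i1 was at −0.20, Cox6b1 at −0.26 and Cox5b at −0.02. Cox7a2l, which joins complexes III and IV into supercomplexes, changed by 0.66 (SE 0.06). Cox4i2 changed by 0.59 (SE 0.16, adjusted p = 0.000965, edgeR), but by −0.94 relative to the nuclear sum and −0.09 with the cardiomyocyte covariate. Cox6b2 was the 1 member called lower, by −0.78 (SE 0.19, adjusted p = 0.000415, edgeR), at −0.11, 0.59 and 1.44 log2 CPM at day 28 against 0.73, 1.64 and 2.08 at day 7.

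Isoform pairs can be compared within a library per kilobase of gene, which needs no scaling between libraries but rests on gene length. Length was that of all annotated exons merged, such as 4912 bases for Atp5g1, 1675 for Atp5g2, 535 for Cox7a1 and 944 for Cox7a2. Whether a ratio lies above 0 depends on these lengths, while its change between groups does not. In raw counts at day 7, Atp5g1 averaged 5126 and Atp5g2 2475. The log2 ratio of Cox6a2 to Cox6a1 was 2.32, 2.87 and 3.45 (lowest, median, highest) in T1D, 1.13, 3.09 and 3.71 in T2D and 2.48, 3.15 and 3.77 in ND tissue at day 28. At day 7 it was −2.58, −0.30 and 0.56 in T1D, −1.64, 0.78 and 1.30 in T2D, and −0.44, 0.83 and 2.10 in ND tissue. The heart isoform was thus the higher one in every library of day 28, and at day 7 in 3 of 8 T1D, 5 of 8 T2D and 7 of 8 ND libraries. For Cox7a1 over Cox7a2 the medians were 0.46 in T1D, 0.80 in T2D and 0.97 in ND tissue at day 28, against −1.32, −0.37 and −0.53 in the same states at day 7, where 0 T1D, 2 T2D and 1 ND library lay above 0. For Cox8b over Cox8a the medians were 1.17 in T1D, 1.44 in T2D and 1.53 in ND tissue at day 28, against −1.65, −0.47 and −0.36 at day 7, where 0 T1D, 0 T2D and 2 ND libraries lay above 0. The library with the lowest ratio at day 7 was T1D replicate 4 for Cox6a2 over Cox6a1, which also had the lowest cardiomyocyte marker mean of the study, 5.84. That library was the highest of its group for the summed CPM of white adipocyte markers (502, against a group median of 0.158), B and plasma cell markers (3454, against 33.4) and neutrophil markers (378, against 95.1). The ratio of Atp5g1 to Atp5g2 behaved alike, with medians of 0.72 in T1D, 0.86 in T2D and 1.06 in ND tissue at day 28, against −0.71, −0.40 and −0.31 at day 7. For Atp5g3 over Atp5g2 the medians were 2.42, 2.45 and 2.73 at day 28, against 1.44, 1.52 and 1.54 at day 7, in T1D, T2D and ND tissue in that order. The low-oxygen relative Ndufa4l2 moved the other way against Ndufa4, with medians of −3.62 in T1D, −3.45 in T2D and −3.80 in ND tissue at day 28, against −2.03, −2.09 and −1.99 at day 7. Cox4i2 stayed far under Cox4i1, with medians of −6.19, −6.09 and −6.00 at day 28 and −5.27, −4.96 and −5.28 at day 7 in the same order, as did Cox6b2 under Cox6b1, with −8.48, −7.96 and −8.80 at day 28 and −7.01, −6.59 and −6.76 at day 7.

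**Figure D4:**
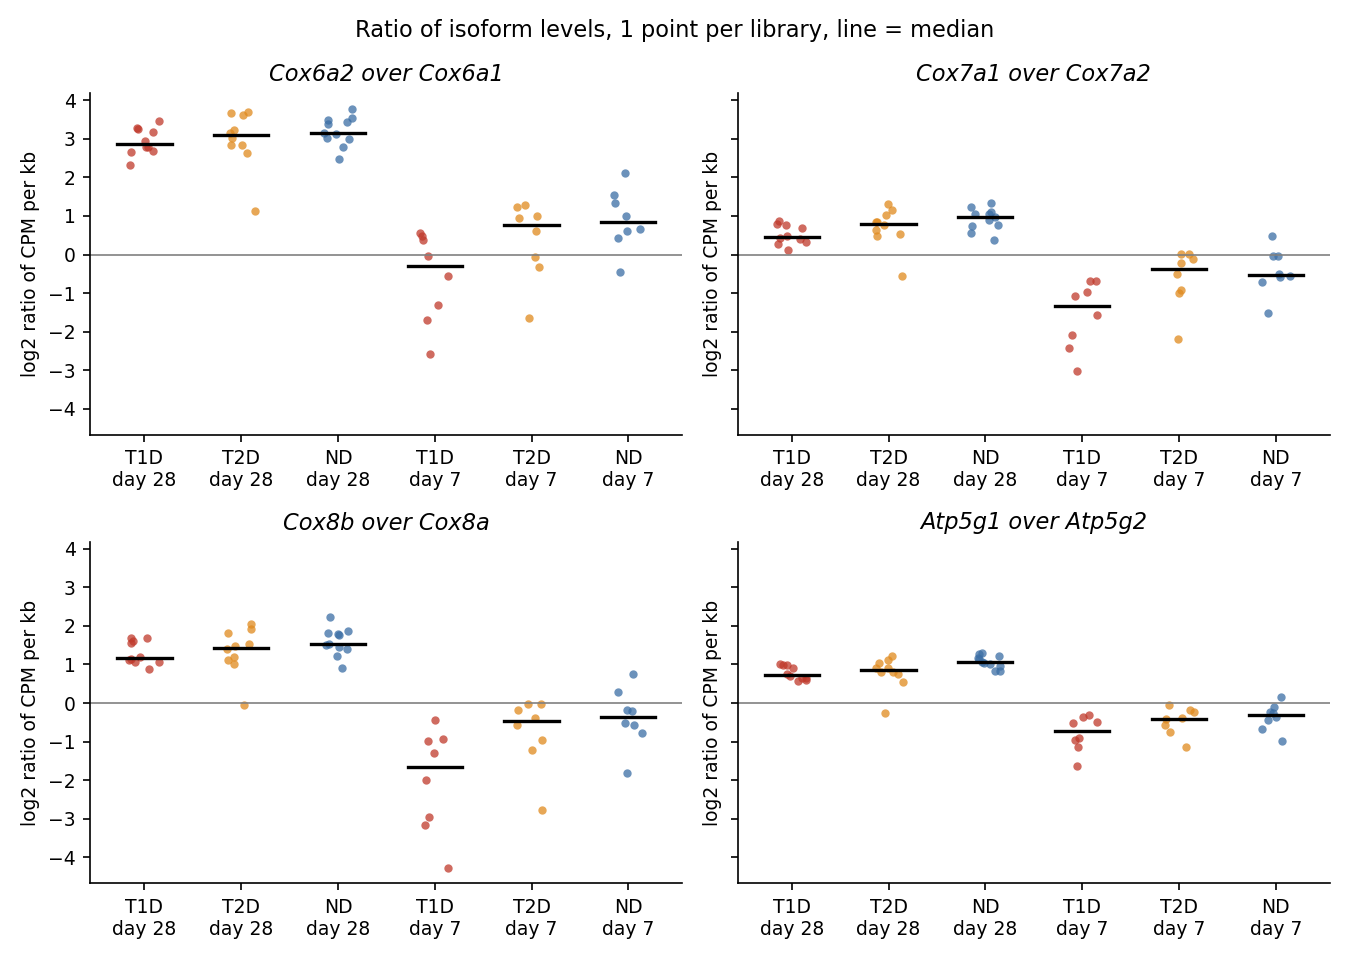
Log2 ratio of CPM per kilobase for Cox6a2 over Cox6a1, Cox7a1 over Cox7a2, Cox8b over Cox8a and Atp5g1 over Atp5g2 in the 6 groups, with 1 point per library, a line at the median and a grey line at 0. At the grey line both isoforms are level per kilobase of merged annotated exons, so the side a library falls on depends on the annotated lengths. At day 28 the medians lie between 0.46 and 3.15, and at day 7 the T1D medians of −0.30, −1.32, −1.65 and −0.71 are the lowest of the 3 groups in each panel.

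The promoters of these isoforms are shown because the isoforms changed unequally with time. Each is the 150 bases before the start in the RefSeq promoter table of build GRCm38.p6, on the strand of the gene, whereas the counts rest on mm39 and no coordinate was converted. Capitals mark matches to motifs of NRF1 (GCGCA, any base, GCGC) and of ETS factors (CCGGAAG), searched on both strands together with the motif of the estrogen-related receptors, ERR (AAGGTCA).
Cox6a1, chr5:115348959-115349108, minus strand: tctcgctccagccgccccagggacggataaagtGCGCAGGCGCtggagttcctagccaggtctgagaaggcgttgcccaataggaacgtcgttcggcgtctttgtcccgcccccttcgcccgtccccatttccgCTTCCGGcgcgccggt
Cox7a1, chr7:30184021-30184170, plus strand: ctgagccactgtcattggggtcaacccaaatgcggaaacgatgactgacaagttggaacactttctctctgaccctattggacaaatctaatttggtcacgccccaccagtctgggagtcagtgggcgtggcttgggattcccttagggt
Cox7a2, chr9:79759854-79760003, minus strand: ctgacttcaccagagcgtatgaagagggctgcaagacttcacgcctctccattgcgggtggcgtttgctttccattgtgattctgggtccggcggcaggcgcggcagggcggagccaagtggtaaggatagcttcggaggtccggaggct
Cox8a, chr19:7217617-7217766, minus strand: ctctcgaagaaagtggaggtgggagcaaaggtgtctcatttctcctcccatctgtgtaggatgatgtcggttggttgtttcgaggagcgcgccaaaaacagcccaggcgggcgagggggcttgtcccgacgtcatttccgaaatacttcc
Cox8b, chr7:140900447-140900596, minus strand: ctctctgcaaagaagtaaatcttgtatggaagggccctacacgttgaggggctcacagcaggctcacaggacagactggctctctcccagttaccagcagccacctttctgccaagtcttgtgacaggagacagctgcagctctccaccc
Cox6a1, with the smallest change with time among the called genes of complex IV, holds an NRF1 and an ETS match in these bases, and the other 4 hold none of the 3 motifs in the bases shown. In the full window of the table, from 250 bases before to 50 after the start, Cox8a also holds an ETS match. Over that window the NRF1 motif was in 16 of 69 nuclear members (23.19 percent) and in 4.6 percent of all 32851 promoters. The ETS motif was in 15 members (21.74 percent) and 8.86 percent of all promoters, and the ERR motif in 8 members (11.59 percent) and 4.72 percent. Matches may overlap, and a match is not a site of binding. Of 86 nuclear symbols, 69 were in the table, and those that were not included Atp5a1, Atp5mpl, Cox4i1, Cox4i2, Cox6a2, Cox6c, Cox8c, Cyc1, Ndufa2, Ndufa4l2, Ndufb9, Ndufs1, Sdhc, Uqcrb, Uqcrc2 and Uqcrq.

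The genes that build and feed the chain were also higher at day 28 in ND tissue. Of 42 assembly factors tested, 40 were higher with a median log2 change of 0.93, and Cox20 (0.56) and Cox18 (−0.15) were not called. Of 86 genes of mitochondrial translation, 85 were higher with a median of 0.88, the exception being Mrpl52. Of 19 genes of mitochondrial DNA upkeep and transcription, 17 were higher with a median of 0.86, among them the packaging factor Tfam (0.86), the RNA polymerase Polrmt (0.82), the helicase Twnk (1.08) and the RNA-stabilising factor Lrpprc (1.42), but not Mterf1a or Polg2. Of 25 biogenesis regulators and electron carriers, 21 were higher and 3 lower, with a median of 1.42. They included the muscle regulator Perm1 (2.84), the nuclear receptors Esrrb (2.13), Esrrg (1.35), Esrra (1.19) and Ppara (1.42), the coactivators Ppargc1a (1.47) and Ppargc1b (1.33), cytochrome c (Cycs, 1.82), and Coq8a (2.03) and Coq9 (1.83) of ubiquinone synthesis. The 3 called lower were Nrf1 (−0.17), Gabpb1 (−0.12) and Pprc1 (−0.34), and Gabpa (0.06) was not called.

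In T1D against ND tissue at day 7 the heart isoforms of complex IV, Cox8b, Cox6a2 and Cox7a1, had the lowest log2 changes of the members. Cox8b and Cox6a2 passed the test and Cox7a1 did not, and most members that passed were not heart isoforms. Of 84 nuclear members 7 were lower and 1 was higher, and of 13 mitochondrial members 1 was lower, while 22.5 percent of all genes tested were called, 11.1 percent higher and 11.4 percent lower. The members' share of lower calls was therefore no larger than that of all genes. The median log2 change was −0.21 for nuclear members, or 0.02 when scaled to the nuclear sum, and −0.46 for mitochondrial members, or −0.24 when so scaled, against −0.01 for all genes. Without ND replicate 2 the nuclear median was −0.13 and the mitochondrial one −0.28, and over all libraries left out in turn they reached down to −0.26 and −0.60. In direction 82 of 84 nuclear and 13 of 13 mitochondrial members were below 0. Such counts of direction, here and below, are not independent observations, since members of a library can move together. At an unadjusted p under 0.05 there were 29 nuclear and 3 mitochondrial members, a share no larger than the 35.5 percent of all genes. No member's libraries were fully apart between the groups.

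Cox8b had 1.51, 3.90 and 4.96 log2 CPM (lowest, median, highest) in T1D, against 3.61, 5.09 and 6.33 in ND tissue. None of the 8 T1D libraries exceeded the ND mean, and the log2 change was −1.29 (SE 0.44, adjusted p = 0.034, edgeR). Cox6a2 had 3.86, 5.95 and 7.13 in T1D, against 5.81, 6.96 and 8.11 in ND tissue, with 1 T1D library above the ND mean and a change of −1.12 (SE 0.40, adjusted p = 0.0462, edgeR). Replicate 4 of T1D was the lowest library for Cox8b and Cox6a2. Cox7a1, the third heart isoform, had 2.12, 4.26 and 4.96 in T1D, against 3.70, 5.15 and 6.37 in ND tissue, and its change of −1.06 did not pass by edgeR (SE 0.40, adjusted p = 0.0554) and passed by DESeq2 (adjusted p = 0.0448). The widely expressed Cox6a1 was the 1 member called higher, with 6.20, 6.37 and 6.61 in T1D, against 6.05, 6.25 and 6.33 in ND tissue and a change of 0.19 (SE 0.07, adjusted p = 0.0465, edgeR). Cox8a (0.08) and Cox7a2 (−0.07) were not called.

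The other nuclear members called lower in T1D tissue at day 7 belong to complexes I, III and IV. Uqcr11, a small subunit of complex III, had 5.51, 5.78 and 6.29 log2 CPM in T1D, against 5.76, 6.24 and 6.86 in ND tissue, a change of −0.53 (SE 0.16, adjusted p = 0.0177, edgeR) with 0 of 8 T1D libraries above the ND mean. Cox7a2l had 6.59, 6.86 and 6.91 in T1D, against 6.84, 7.02 and 7.25 in ND tissue, and its small change of −0.22 had the lowest adjusted p of the members (SE 0.06, adjusted p = 0.0145, edgeR). The groups of both genes overlapped. The core gene Ndufs7 was at −0.47 (SE 0.17, adjusted p = 0.0443, edgeR), the accessory gene Ndufa13 at −0.33 (SE 0.12, adjusted p = 0.0415, edgeR) and Cox6b2 at −0.51 (SE 0.18, adjusted p = 0.0441, edgeR). In complexes II and V none of 4 and 17 nuclear members was called by edgeR or DESeq2, with 0 and 4 at an unadjusted p under 0.05. Their medians were −0.16 and −0.20, and Atp5g1 (−0.50, adjusted p = 0.0877, edgeR) was the lowest nuclear member of complex V. Among the mitochondrial genes mt-Atp6 was called, with 0.33, 1.02 and 1.95 log2 CPM in T1D, against 0.70, 1.95 and 3.10 in ND tissue, and a change of −0.87 (SE 0.32, adjusted p = 0.05, edgeR). It is one of the genes that share sequence with a nuclear copy. The 7 well counted genes ranged from −0.08 (mt-Nd1) to −0.49 (mt-Nd2), with mt-Cytb at −0.40 and mt-Co1 at −0.37 (adjusted p = 0.256, edgeR), and none was called.

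These calls lay close to the threshold. Leaving out 1 library moved the nuclear count of lower calls between 2 and 19, with 3 without T1D replicate 1, 13 without replicate 2, 13 without replicate 3, 2 without replicate 6, 2 without replicate 7 and 3 without replicate 8. Without ND replicates 1, 2, 3, 4, 5 and 8 it was 4, 2, 2, 3, 19 and 4, in that order. The mitochondrial count ran from 0 to 3, and was 3 without T1D replicate 2 and without ND replicate 5. Cox7a2l and Uqcr11 kept their calls in all 16 such fits, with highest adjusted p of 0.0434 and 0.0489 by edgeR, while Cox8b lost its call in 6, Cox6a1 in 8, and Cox6a2, Cox6b2, Ndufa13, Ndufs7 and mt-Atp6 in 10 each. Cardiomyocyte markers had a median of −0.54 in the same comparison, 1 of 20 (Mb, −1.50) being called lower and 0 higher. Neutrophil markers were higher in 6 of 6 (median 2.50), macrophage markers in 7 of 10 (median 0.34) and erythroid markers in 5 of 5 (median 2.31), and 8 of 10 fibroblast markers were lower (median −0.64). With the cardiomyocyte marker mean as a covariate the median change was 0.05 for nuclear and 0.05 for mitochondrial members. In that fit, which called 19 percent of all genes, Cox8b (−0.45) and Cox7a2l (−0.21) were lower, and Atp5b (0.16), Atp5f1 (0.21), Cox5a (0.27), Uqcrb (0.28) and Uqcrc2 (0.21) were higher.

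**Figure D5:**
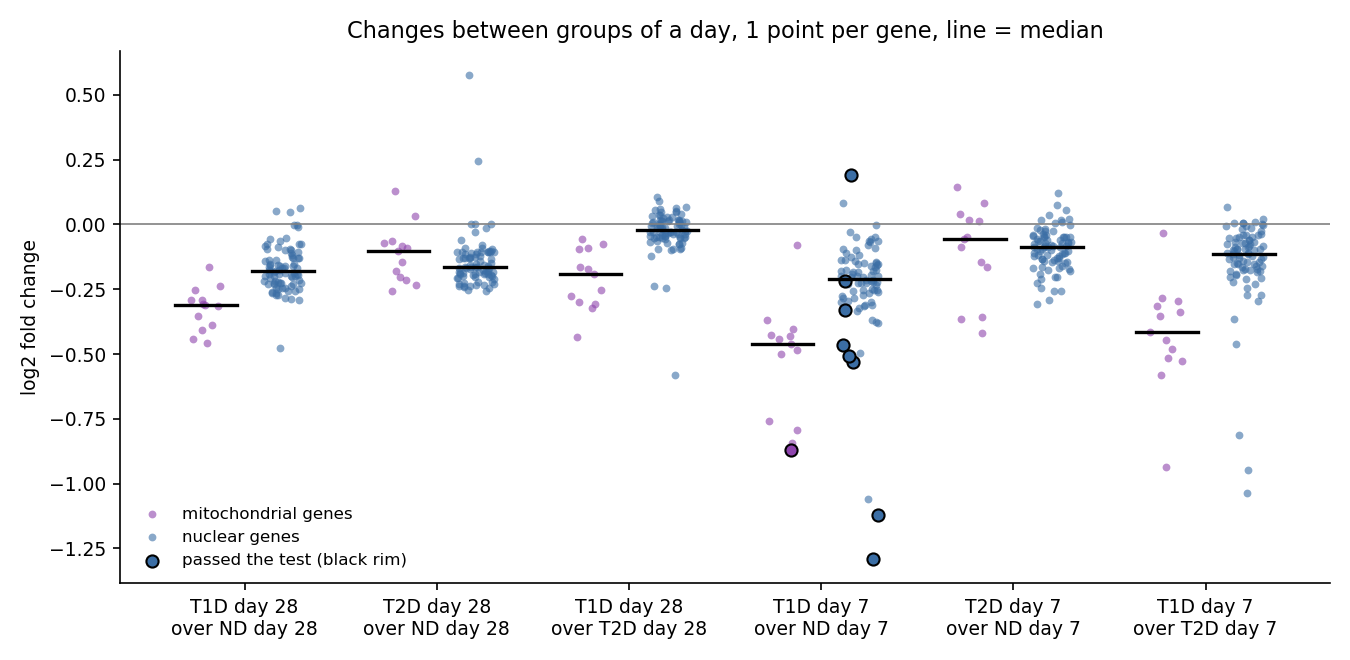
Log2 fold change of each mitochondrial (purple) and nuclear (blue) member in the 6 comparisons between groups of a day, with 1 point per gene, a line at the median and a black rim where the edgeR test was passed. Only T1D over ND tissue at day 7 has called members (8 nuclear, 1 mitochondrial), and in T1D over T2D tissue the mitochondrial medians (−0.19 at day 28, −0.42 at day 7) lie below the nuclear ones (−0.02 and −0.11).

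In the supporting lists, T1D against ND tissue at day 7 showed few calls. The assembly factors had 1 lower of 41 (Ndufaf3, −0.35) and mitochondrial DNA upkeep had 1 higher (Pnpt1, 0.36) and 2 lower (Polg, −0.16, and Polrmt, −0.19) of 19. Mitochondrial translation had 5 higher and 1 lower of 86, among the higher ones Mrps18c (0.47), Mrpl20 (0.30) and Mrpl33 (0.21). Of the regulators and carriers, Perm1 (−1.38, adjusted p = 0.0342, edgeR), Coq8a (−1.09, adjusted p = 0.0159) and Coq9 (−0.58, adjusted p = 0.033) were lower and Pdss1 (0.36) was higher, of 25.

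In T2D against ND tissue at day 7 no member was called by edgeR or DESeq2, while 7.35 percent of all genes were. At an unadjusted p under 0.05 there were 2 nuclear and 0 mitochondrial members, and 22.8 percent of all genes. The medians were −0.09 for nuclear and −0.06 for mitochondrial members, or 0.02 and 0.05 when scaled to the nuclear sum. With 1 library left out the mitochondrial median ran from −0.14 (without ND replicate 5) to 0.11 (without ND replicate 2), and the nuclear one from −0.14 (without T2D replicate 1) to −0.02 (without ND replicate 2). The heart isoforms overlapped between the groups and were not called. Cox8b was at 2.85, 5.24 and 5.74 log2 CPM in T2D and 3.61, 5.09 and 6.33 in ND tissue. Cox6a2 was at 4.77, 7.06 and 7.67 in T2D and 5.81, 6.96 and 8.11 in ND tissue. Their log2 changes were −0.26 for Cox8b (SE 0.43), −0.31 for Cox6a2 (SE 0.40) and −0.11 for Cox7a1 (SE 0.39), too imprecise to show that levels were equal. Cox7a2l had the smallest p, at −0.18 (SE 0.06, adjusted p = 0.0851, edgeR) with 0 of 8 T2D libraries above the ND mean, followed by Ndufa4l2 at −0.29 (adjusted p = 0.141). Cox7a2l was called without ND replicate 6 (adjusted p = 0.0493) and Ndufa4l2 without ND replicate 7 (adjusted p = 0.0452), both by edgeR.

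T1D against T2D tissue at day 7 likewise held no called member by edgeR or DESeq2, while 2.71 percent of all genes were called. There were 5 nuclear and 1 mitochondrial members at an unadjusted p under 0.05, and 19.5 percent of all genes. All 13 mitochondrial members were below 0, with a median of −0.42, or −0.31 relative to the nuclear sum. The nuclear median was −0.11, or 0.01 when so scaled, and that of all genes was 0.0035. The heart isoforms Cox8b (−1.03, SE 0.43, adjusted p = 0.186), Cox7a1 (−0.95, SE 0.40, adjusted p = 0.185) and Cox6a2 (−0.81, adjusted p = 0.263) did not pass by edgeR. Without T1D replicate 2 and without T2D replicate 1 the nuclear median was −0.17 and −0.07, in that order. Cardiomyocyte markers had a median of −0.43 in this comparison, and with their mean as a covariate 1 nuclear member, Cox8b (−0.42), was lower, while 3.25 percent of all genes were called.

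At day 28 no member was called in T1D against ND tissue by edgeR or DESeq2, while 4.02 percent of all genes were. There were 3 nuclear and 2 mitochondrial members at an unadjusted p under 0.05, against 19.6 percent of all genes, and 81 of 84 nuclear and 13 of 13 mitochondrial members were below 0. The medians were −0.18 for nuclear and −0.31 for mitochondrial members, or −0.03 and −0.14 relative to the nuclear sum. Those of the cardiomyocyte markers and of all genes were −0.25 and −0.0035. The largest mitochondrial difference was that of mt-Nd2, at −0.46 (SE 0.20, adjusted p = 0.198, edgeR) with 1 of 10 T1D libraries above the ND mean. For mt-Cytb the levels were 14.36, 14.66 and 15.23 log2 CPM in T1D and 14.62, 15.14 and 15.58 in ND tissue, and the difference was −0.39 (SE 0.18, adjusted p = 0.211, edgeR). Of the nuclear members Cox7a1 was at −0.48 (SE 0.23, adjusted p = 0.240, edgeR) and Ndufb2 at −0.29 (adjusted p = 0.175). Core genes of the complexes lay between, with Ndufs1 at −0.16, Sdha at −0.16, Uqcrfs1 at −0.27, Cox4i1 at −0.10 and Atp5b at −0.09. In the fit with the cardiomyocyte covariate, which called 7.87 percent of all genes, 5 members passed, mt-Nd2 (−0.20), mt-Cytb (−0.18) and Cox7a1 (−0.20) lower and Sdhc (0.15) and Atp5b (0.10) higher. In the supporting lists 4 of 42 assembly factors were lower (Coa7, −0.39, Tmem126b, −0.28, Coa6, −0.27, and Cox15, −0.26), as were Tfam (−0.25, adjusted p = 0.0231, edgeR) and 3 of 86 translation genes (Mrps14, Mrps26 and Mrps34).

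T2D against ND tissue at day 28 held no called member by edgeR and 1 by DESeq2, while 10.7 percent of all genes were called by edgeR. At an unadjusted p under 0.05 there were 4 nuclear and 0 mitochondrial members, and 25.3 percent of all genes. The medians were −0.16 for nuclear and −0.10 for mitochondrial members, or −0.01 and 0.0006 relative to the nuclear sum, beside −0.29 for the cardiomyocyte markers. T cell markers were higher in 6 of 6 (median 1.26) and macrophage markers in 4 of 10 (median 0.44). T1D replicate 4 of day 7 and T2D replicate 4 of day 28 had the lowest cardiomyocyte marker mean of their days. Without them the nuclear and mitochondrial member medians were −0.08 and −0.01, in that order. Without T2D replicate 8 of day 28 these member medians were −0.23 and −0.22. Cox6b2 had the smallest p, with 0.25, 1.33 and 2.01 log2 CPM in T2D and −0.11, 0.59 and 1.44 in ND tissue, 9 of 10 T2D libraries above the ND mean and a difference of 0.58 (SE 0.20, adjusted p = 0.056, edgeR, and 0.0296 by DESeq2). It passed when T2D replicate 5 or 7, or ND replicate 1, 3, 8 or 11, was left out (adjusted p 0.0171 to 0.0434, edgeR). Ndufa4l2 was at 0.24 (adjusted p = 0.182). With the cardiomyocyte covariate, where 10.7 percent of all genes were called, 11 nuclear and 4 mitochondrial members were higher, among them Ndufs1 (0.16), Sdha (0.13), Atp5a1 (0.14), Atp5b (0.14), mt-Co1 (0.20) and mt-Cytb (0.19). Tfam (−0.24, adjusted p = 0.0133), Ppargc1b (−0.84, adjusted p = 0.0202) and Pdss1 (−0.38) were lower in the edgeR fit without the covariate. The comparisons of T1D and of T2D with ND tissue on a day share their ND libraries.

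In T1D against T2D tissue at day 28 the mitochondrial median lay below the nuclear one, without a call. While 3.21 percent of all genes were called, no member was by edgeR or DESeq2, and 2 nuclear and 0 mitochondrial members had an unadjusted p under 0.05, as had 16.8 percent of all genes. All 13 mitochondrial members were below 0 with a median of −0.19, or −0.11 relative to the nuclear sum. Of the nuclear members 53 of 84 were below 0, with a median of −0.02, or −0.01 when so scaled. The median of all genes was −0.0051. Members of a library can move together, so these counts of direction are not independent observations. Single libraries moved these medians. The mitochondrial one was −0.32 without T2D replicate 4 and −0.07 without T2D replicate 8, and the nuclear one was −0.10 and 0.05 without the same libraries. Cardiomyocyte markers had a median of −0.01, and 4 of 6 T cell markers were lower (median −1.30). For mt-Cytb the levels were 14.36, 14.66 and 15.23 log2 CPM in T1D and 13.51, 15.02 and 15.65 in T2D tissue, so the groups overlapped fully, and the difference of −0.31 did not pass (adjusted p = 0.412, edgeR). With the cardiomyocyte covariate, where 6.58 percent of all genes were called, 4 mitochondrial genes were lower in T1D tissue, which were mt-Cytb (−0.37, SE 0.05, adjusted p = 3.4e-05, edgeR), mt-Nd2 (−0.34, SE 0.06, adjusted p = 0.000307), mt-Nd4 (−0.32, SE 0.06, adjusted p = 0.000379) and mt-Nd3 (−0.37, SE 0.10, adjusted p = 0.0278). In that fit 9 nuclear members were lower as well, led by Cox7a1 (−0.31, SE 0.06, adjusted p = 0.000875, edgeR), followed by Ndufa10 (−0.15) and Ndufb10 (−0.14). Without the covariate Cox6b2 was at −0.58 (SE 0.20, adjusted p = 0.112, edgeR) with 0 of 10 T1D libraries above the T2D mean, and passed only when T2D replicate 5 was left out (adjusted p = 0.0454).

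Without the covariate, no member passed the test for a difference between the days in the effect of diabetes, by edgeR or DESeq2. Recovery of such differences was not simulated, so smaller ones may have been missed. The T1D effect at day 28 minus that at day 7 had medians of 0.02 for nuclear and 0.11 for mitochondrial members, −0.04 and 0.10 relative to the nuclear sum, and 12.5 percent of all genes were called. Fibroblast markers were higher in this difference in 8 of 10 (median 0.96), neutrophil markers lower in 6 of 6 (median −2.48) and erythroid markers lower in 5 of 5 (median −2.11), and cardiomyocyte markers had a median of 0.41. The smallest p among members belonged to Cox8b, with a difference of 1.04 (SE 0.46, adjusted p = 0.128, edgeR), followed by Cox6a2 with 0.91 (SE 0.44, adjusted p = 0.177). At an unadjusted p under 0.05 there were 2 nuclear and 0 mitochondrial members, and 26.1 percent of all genes. With the cardiomyocyte covariate, where 17.6 percent of all genes were called, 24 nuclear and 4 mitochondrial members were lower and Cox8b (0.49) was higher in the T1D effect at day 28 than at day 7, with Cox5a (−0.55), Uqcrb (−0.49), Atp5f1 (−0.45) and mt-Nd1 (−0.64) among the lower ones. The T2D effect had medians of −0.10 and −0.13, −0.02 and −0.09 relative to the nuclear sum, while 1.51 percent of all genes were called. There were 3 nuclear and 0 mitochondrial members at an unadjusted p under 0.05, beside 15.9 percent of all genes, led by Ndufa4l2 with a difference of 0.50 (SE 0.17, adjusted p = 0.108, edgeR). In the supporting lists the T1D effect was lower at day 28 for 11 of 86 translation genes (median −0.19), among them Mrps18c (−0.56) and Mrpl20 (−0.41), and for Coa6 (−0.43), Pnpt1 (−0.47) and Pdss1 (−0.71), and the T2D effect was lower for Coa6 (−0.46).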

How the data were processed

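Raw counts for Ensembl genes were deposited by the authors as 1 table per day, with 56941 genes at day 7 and 57186 at day 28. RNA had been extracted with a PureLink kit and libraries made with a stranded TruSeq mRNA kit, per the labels' protocols. The submitters' processing notes name the build mm39 and the tool DESeq2. Neither aligner, counting tool and strand setting nor annotation is given in the sources used here. Even numbers made up 76.4 percent of day 7 counts and 75.2 percent of day 28 counts from 1 to 49, as if most read pairs had been counted by both mates.

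Symbols came from GENCODE M21 (GRCm38) by Ensembl identifier, which named 51948 identifiers at day 7 and 51880 at day 28. All sample columns were used, and no pair of libraries in a group was a repeat within sampling noise (lowest chi-square per gene 17.6). Groups came from the sample titles.

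Counts were tested in R 4.3.3 with edgeR 4.0.16 (TMM scaling, filterByExpr with a minimum count of 10 and a total of 15, glmQLFit and glmQLFTest), with adjusted p over all 18165 genes at day 7, 18901 at day 28 and 20421 over both days. Each day was fitted with its 3 groups, and a fit of all 6 groups gave the change with time and the difference between effects. The SE is the size of the log2 change divided by the square root of F. Levels are log2 CPM with a prior count of 2. The fits were tested on simulated data with 200 changed genes, where log2 changes of 1 were recovered in 90 percent of genes for T1D against ND tissue at day 7 (18165 genes), 92 percent for T1D against ND tissue at day 28 (18901 genes) and 94 percent for the change with time (20421 genes). False calls were 2.58, 6.86 and 4 percent of all calls, in that order. Only genes above a minimum mean count were changed, by log2 1 or 2. Recovery of smaller changes, such as most member differences within a day, was not simulated.

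Alternatives were DESeq2 1.42.0, RLE scaling, scaling without the mitochondrial members or to the summed nuclear members, no filter, only the groups compared, the cardiomyocyte marker mean as covariate, replicate number as a block, libraries summed by the first number in their name, each library left out, and T1D replicate 4 of day 7 and T2D replicate 4 of day 28 left out. Genes named are all mitochondrial members, the isoform pairs, core subunits, the called member with the smallest p of each complex, every called member where 5 or fewer were called, and the extremes of each origin, and others were named after their values were seen. Results for 1 gene of this rule are not reported here. The members, the lists and the tests were chosen with earlier results of these data known.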

Additional observations from a re-analysis of the deposited data

Results flagged for a closer look

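In 95 tests of a group's values, 16 placed 1 library apart from its group by the gap to its nearest neighbour (Dixon's test at 95 percent), where chance gives about 1 in 20. T2D replicate 4 of day 28 was lowest in 12 of them. It held 1.26 percent of its counts in nuclear members, and its levels in log2 CPM were 7.31 for Cox6a2, 5.47 for Cox7a1, 6.85 for Cox7a2, 5.62 for Cox8b, 14.38 for mt-Co1, 13.51 for mt-Cytb, 12.58 for mt-Nd1, 12.12 for mt-Nd2, 12.06 for mt-Nd4, 12.34 for mt-Nd5 and 10.65 for mt-Nd6. Its cardiomyocyte marker mean was also the lowest of its group, at 9.13 log2 CPM. It was the highest of its group for the summed CPM of B and plasma cell markers (8693, against a group median of 339) and of T cell markers (85.7, against 14.0), and the part of tissue makeup was not tested. T2D replicate 7 of day 7 was lowest for the log2 ratio of mitochondrial to nuclear counts (1.86), for mt-Nd5 (11.33 log2 CPM) and for mt-Nd6 (9.72 log2 CPM), and ND replicate 2 of day 7 was highest for Cox4i2 (2.85 log2 CPM).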

How the results depend on the processing

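Of the counts and medians over members, 298 values under other settings stayed with the main value and 38 moved. For the change with time in ND tissue, DESeq2, RLE scaling, scaling without the mitochondrial members, the replicate block and leaving out both low libraries each called the same 96 members, and scaling to the summed nuclear members called 20 nuclear members higher and 34 lower. That scaling sets the nuclear sum to no change and so turned the sign of Atp5b (−0.0014), Atp5g2 (−0.97), Cox4i1 (−0.20), Cox4i2 (−0.94), Cox5b (−0.0248), Cox6a1 (−1.38), Cox6b1 (−0.26), Cox7a2 (−0.10), Cox8a (−1.01), Ndufs8 (−0.35), Ndufv1 (−0.0042), Ndufv2 (−0.0101), Sdhc (−0.24) and Sdhd (−0.0896), and of Cox7a2l (0.032) in T1D against ND tissue at day 7. The covariate turned Cox4i2 (−0.0931).

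For T1D against ND tissue at day 7 (7 nuclear members lower, 1 higher, 1 mitochondrial lower), the nuclear lower count was 3 with nuclear scaling, 3 without the filter, 3 with only the groups compared, 2 with the covariate, 11 with DESeq2 and 0 with summed libraries. Summing leaves fewer samples. Whether libraries that share a first number are more alike was not tested. The nuclear higher count was 5 with the covariate and 0 with nuclear scaling, no filter, the replicate block, only the groups compared, summed libraries or both low libraries left out. The mitochondrial lower count was 2 with DESeq2 and 0 with scaling without the mitochondrial members, nuclear scaling, no filter, the covariate, the replicate block, only the groups compared, summed libraries or both low libraries left out. Leaving out 1 library gave 2 to 19 nuclear lower, 0 to 1 nuclear higher and 0 to 3 mitochondrial lower calls. The replicate numbers do not pair the libraries, as same-numbered libraries correlated by −0.04 to 0.11 on average, and with the replicate block 9 nuclear members were lower.

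Where no member was called, the covariate gave 1 nuclear lower in T1D against T2D tissue at day 7, 2 nuclear higher, 1 nuclear lower and 2 mitochondrial lower in T1D against ND tissue at day 28, 11 nuclear and 4 mitochondrial higher in T2D against ND tissue, 9 nuclear and 4 mitochondrial lower in T1D against T2D tissue, and 1 nuclear higher, 24 nuclear lower and 4 mitochondrial lower in the T1D effect of day 28 minus day 7. Nuclear scaling gave 1 mitochondrial lower in T1D against ND and 1 in T1D against T2D tissue at day 28, and DESeq2 gave 1 nuclear higher in T2D against ND tissue at day 28. With 1 library left out, T1D against T2D tissue at day 28 had 0 to 1 nuclear lower, T2D against ND tissue at day 28 had 0 to 1 nuclear higher and T2D against ND tissue at day 7 had 0 to 1 nuclear lower calls. Single libraries were not left out for the change with time. The causes were not tested. The few counts of mt-Atp8 and mt-Nd4l at day 7 limit what can be said of them.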
